A study of Mus musculus with 8 samples.

Results

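Alpl, Phospho1, Enpp1, Ank, Slc20a1, Slc20a2 and Mgp are 7 genes of phosphate handling and cartilage mineralization, and their RNA was compared in growth plate cartilage of CreTW and Cre mice. They were taken by name: each non-control probe whose RefSeq transcript belonged to 1 of the 7 genes (Ank is also called Ankh) was a probe of that gene. This gave 8 probes, of which 7, 1 for each gene, were well above background on all 8 arrays and entered the test with 23105 features in all. The eighth probe, the other one of Slc20a1, was well above background on 1 of 4 CreTW arrays and 1 of 4 Cre arrays and was not tested.

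RNA came from the femoral growth plates of CreTW mice (4) and their Cre littermates (4), all 12 days old, and 100 ng of each mouse's RNA went onto its own 1-colour (Cy3) Agilent array. Alleles, strain and sex, and the promoter behind the recombinase, are not given in the labels. As background on this study, both groups carry a Cre recombinase active in cartilage. By the same background, CreTW mice also express there a mutant form of Twinkle, the helicase of mitochondrial DNA. The comparison thus concerns growth cartilage meant to lose respiratory chain function, which these arrays did not measure. Whole cartilage was measured, so fewer cells of a type and less RNA per cell cannot be told apart. Per array, 45.4% to 57.9% of 56605 probes exceeded background clearly by the scanner software's own mark, saturated spots numbered 0, and precision is limited by the number of arrays.

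Cartilage matrix mineralizes where hypertrophic chondrocytes, the enlarged cells nearest to bone, release small matrix vesicles in which calcium phosphate first forms. Phosphate for these crystals comes from phosphatases and carriers, whereas extracellular pyrophosphate and proteins such as matrix Gla protein hold crystal growth back. The balance of phosphate and pyrophosphate therefore sets where mineral appears. Mice and people that lack the phosphatase made by Alpl have soft, poorly mineralized bone, and mice that lack Mgp calcify their arteries and growth plate cartilage.

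None of the 7 genes passed the test between CreTW and Cre cartilage. The limma fit called 0 of 7, where 0.346% of all features were called at an adjusted p of 0.05, and 1 of the 7, Slc20a1, had an unadjusted p under 0.05, as did 10.7% of all features. The log2 differences, CreTW minus Cre, lay between -0.26 for Phospho1 and 0.20 for Slc20a1, with 5 positive and 2 negative. Their median was 0.02, against -0.01 over all features, of which 48.4% were positive. A 2-fold change in either direction lay outside the 95% interval of each of the 7 differences, the lowest bound being 0.656-fold (Phospho1) and the highest 1.44-fold (Mgp). Levels below are log2 signals relative to the array's 75th percentile, means carry the SD over 4 arrays of a genotype, differences carry their SE, and p-values are adjusted over 23105 features.

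**Figure D1:**
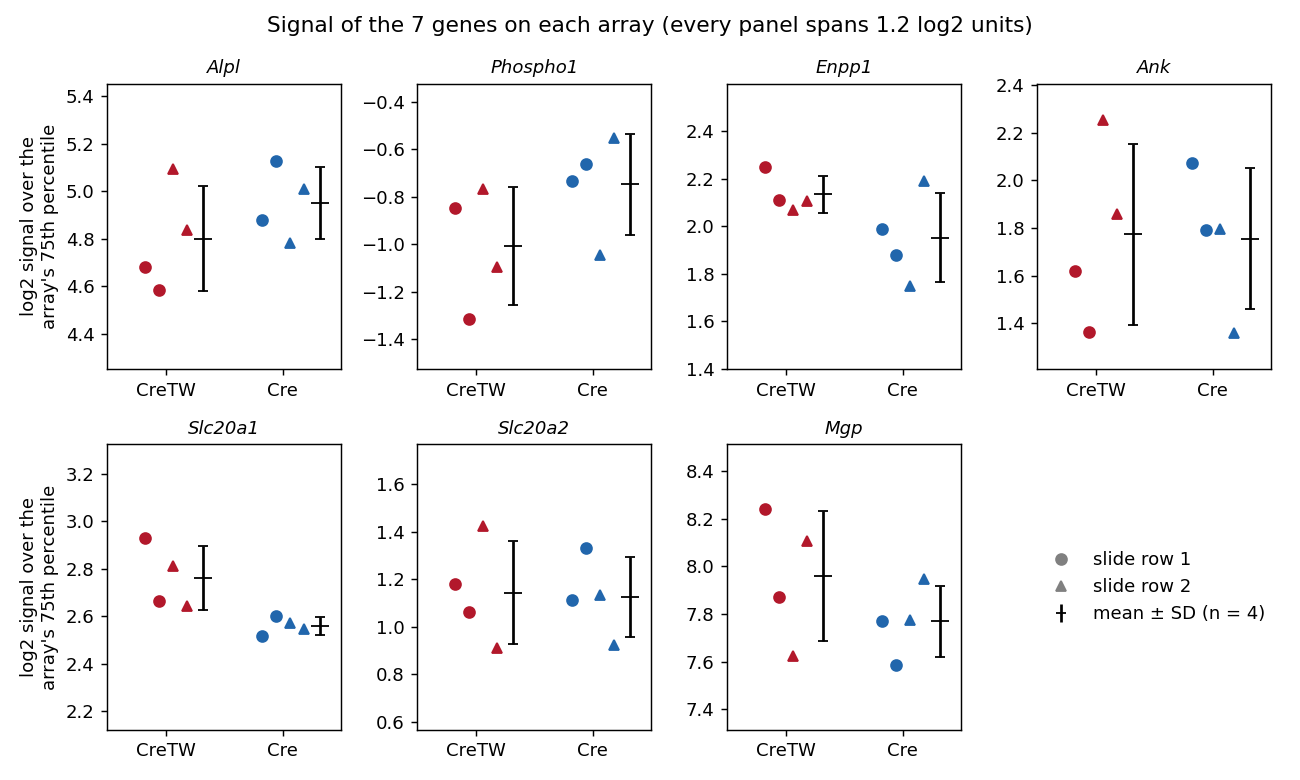
Log2 signal over the array's 75th percentile (vertical axis) for the 7 genes on 4 CreTW arrays (red, left) and 4 Cre arrays (blue, right); circles are slide row 1, triangles slide row 2, and bars the mean ± SD of 4 arrays. Slc20a1 is the gene whose groups do not overlap, with all 4 CreTW arrays at 2.64 or above and all 4 Cre arrays at 2.60 or below.

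The promoter windows of Slc20a1 and Alpl, the 2 genes with more than 1 listed start, are shown since each of these genes has a single tested probe but several starts. Slc20a1 had probes to 2 transcripts (NM_015747 and NM_001159593), of which the first was well above background on all 8 arrays, and Alpl had 1 probe (NM_007431). Which transcripts a probe reads was not checked. Each window is 300 bases, 250 before and 50 after a RefSeq transcription start on GRCm38.p6, and 5 of the 7 genes had a window in that table. Capitals mark matches, on either strand, to the TATA box (TATAAA), the core bound by RUNX factors (TGTGGT), the cyclic AMP response element (TGACGTCA), the site bound by CHOP with ATF factors (TGATGNAAN) or the E box (CACGTG). None of the marked matches overlap.
Slc20a1 window 1, chr2:129198523-129198822 (+ strand): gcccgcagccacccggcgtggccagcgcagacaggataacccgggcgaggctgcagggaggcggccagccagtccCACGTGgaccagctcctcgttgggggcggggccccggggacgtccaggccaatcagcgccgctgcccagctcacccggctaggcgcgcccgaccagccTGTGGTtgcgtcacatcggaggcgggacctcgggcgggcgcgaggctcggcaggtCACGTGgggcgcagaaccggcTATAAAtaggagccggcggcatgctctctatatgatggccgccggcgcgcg
Slc20a1 window 2, chr2:129206846-129207145 (+ strand): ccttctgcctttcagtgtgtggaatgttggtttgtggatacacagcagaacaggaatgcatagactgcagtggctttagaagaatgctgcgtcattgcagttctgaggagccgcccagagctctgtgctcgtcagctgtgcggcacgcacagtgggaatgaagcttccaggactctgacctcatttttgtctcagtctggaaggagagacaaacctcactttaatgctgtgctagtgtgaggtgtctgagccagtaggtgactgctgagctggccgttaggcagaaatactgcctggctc
Alpl window 1, chr4:137796335-137796634 (- strand): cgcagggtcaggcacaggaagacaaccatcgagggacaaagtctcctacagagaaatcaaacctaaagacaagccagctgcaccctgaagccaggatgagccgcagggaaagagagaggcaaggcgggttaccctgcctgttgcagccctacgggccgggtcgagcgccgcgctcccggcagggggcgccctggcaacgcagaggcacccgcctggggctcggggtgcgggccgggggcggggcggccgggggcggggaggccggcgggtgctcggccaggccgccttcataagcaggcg
Alpl window 2, chr4:137766426-137766725 (- strand): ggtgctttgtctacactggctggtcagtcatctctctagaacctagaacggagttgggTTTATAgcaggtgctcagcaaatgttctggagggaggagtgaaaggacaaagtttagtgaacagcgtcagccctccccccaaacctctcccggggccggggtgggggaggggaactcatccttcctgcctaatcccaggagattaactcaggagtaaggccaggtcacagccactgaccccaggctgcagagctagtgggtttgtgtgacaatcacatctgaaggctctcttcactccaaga
The first Slc20a1 window held 1 match to the TATA box, 1 to the RUNX core and 2 to the E box, and the second held 0 matches to any of them. The first Alpl window held 0 matches and the second 1, to the TATA box on the opposite strand. The TATA letters began at base 250 of the Slc20a1 window, right at the start, and at base 59 of the Alpl window. Whether either serves as a TATA box was not tested. Among 32851 windows of this length, 13.6% held the TATA box letters, 16.8% the RUNX core, 7.15% the E box, 3.95% the CHOP site and 1.79% the cyclic AMP response element. Which start was used in these samples was not measured.

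Alpl encodes tissue-nonspecific alkaline phosphatase, which sits on the outside of chondrocytes and matrix vesicles and splits pyrophosphate into phosphate. Its level was 4.68, 4.59, 5.10 and 4.84 on the 4 CreTW arrays and 4.88, 5.13, 4.78 and 5.01 on the 4 Cre arrays. The groups overlapped, with CreTW replicate 2 lowest and Cre replicate 2 highest. Alpl averaged 4.80 ± 0.22 in CreTW cartilage and 4.95 ± 0.15 in Cre cartilage (SD, n = 4 each), a log2 difference of -0.15 ± 0.13 (95% interval -0.45 to 0.15, adjusted p = 0.700, limma).

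Phospho1 encodes the phosphatase inside matrix vesicles that frees phosphate from phosphocholine and phosphoethanolamine. It read -0.85, -1.31, -0.77 and -1.10 on the CreTW arrays and -0.73, -0.66, -1.05 and -0.55 on the Cre arrays. CreTW replicate 2 was lowest and Cre replicate 4 highest, and Cre replicate 3 lay among the CreTW values. Phospho1 averaged -1.01 ± 0.25 in CreTW and -0.75 ± 0.21 in Cre cartilage (SD, n = 4 each), a log2 difference of -0.26 ± 0.15 (95% interval -0.61 to 0.09, adjusted p = 0.584, limma). This was the largest difference of the 7 genes in size, and 21.5% of all features had a larger one.

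Both phosphatases are most active in hypertrophic cartilage, and 8 of 8 genes listed as markers of hypertrophic chondrocytes, Alpl among them, were measured. Whether these genes read hypertrophic chondrocytes alone was not tested. Their log2 differences were negative in 6 and positive in 2 (Col10a1 at 0.20 and Spp1 at 0.07), with Slc37a2 at -0.94 the largest in size. The score of the 8 markers (the mean log2 value after each gene is centred over the 8 arrays) lay between -0.54 and 0.12 on CreTW arrays and between 0.01 and 0.37 on Cre arrays, and 0 of 8 markers passed the test. Their summed level, on the linear scale in units of the array's 75th percentile, was 446 to 713 on CreTW arrays and 532 to 576 on Cre arrays. Col10a1, the collagen of these cells, averaged 8.11 ± 0.21 in CreTW and 7.92 ± 0.28 in Cre cartilage (SD, n = 4 each), while Ihh, the hedgehog ligand, averaged 4.05 ± 0.45 in CreTW and 4.91 ± 0.85 in Cre cartilage. Neither passed the limma test (adjusted p = 0.684 and 0.503). Slc37a2 was lowest on CreTW replicate 2 (-0.27) and highest on Cre replicate 2 (2.22), as was the score of osteoclast markers (-1.42 and 0.89). Which cells the Slc37a2 values come from was not tested. The part of hypertrophic chondrocytes in the values of Alpl and Phospho1 was not tested either.

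Enpp1 and Ank supply extracellular pyrophosphate, the inhibitor that Alpl removes. Enpp1 makes pyrophosphate from ATP outside the cell, and its level was 2.25, 2.11, 2.07 and 2.10 on CreTW arrays and 1.99, 1.88, 1.75 and 2.19 on Cre arrays. All 4 CreTW values lay above 3 of the 4 Cre values, and Cre replicate 4 lay among them. Enpp1 averaged 2.13 ± 0.08 in CreTW and 1.95 ± 0.19 in Cre cartilage (SD, n = 4 each), a log2 difference of 0.18 ± 0.11 (95% interval -0.07 to 0.43, adjusted p = 0.589, limma).

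Ank encodes a membrane protein through which ATP, and so pyrophosphate, reaches the matrix. Its level was 1.62, 1.36, 2.26 and 1.86 on CreTW arrays and 2.08, 1.79, 1.79 and 1.36 on Cre arrays. The groups overlapped over almost their whole range, and the difference was 0.02 ± 0.21 (95% interval -0.47 to 0.50, adjusted p = 0.984, limma). Ank had the widest spread within genotypes of the 7 genes, a pooled SD of 0.34, and 19.9% of all features had a wider one. The arrays lay in 2 rows of 1 slide, 2 of each genotype per row, and the Ank difference was -0.44 within row 1 and 0.48 within row 2.

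In row 1 both CreTW arrays were below both Cre arrays, and in row 2 both were above. The limma test of genotype by slide row, added after the values were seen, gave a log2 difference between rows of 0.93 ± 0.32 for Ank (adjusted p = 0.705), and called 0 of the 7 genes and 0 of 23105 features, while 1 of the 7, Ank, and 6.98% of all features had an unadjusted p under 0.05. Enpp1, Slc20a1, Phospho1 and Mgp kept their sign in both rows, with Mgp at 0.38 in row 1 and 0.005 in row 2. Alpl was at -0.37 and 0.07 and Slc20a2 at -0.10 and 0.14 in rows 1 and 2.

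**Figure D2:**
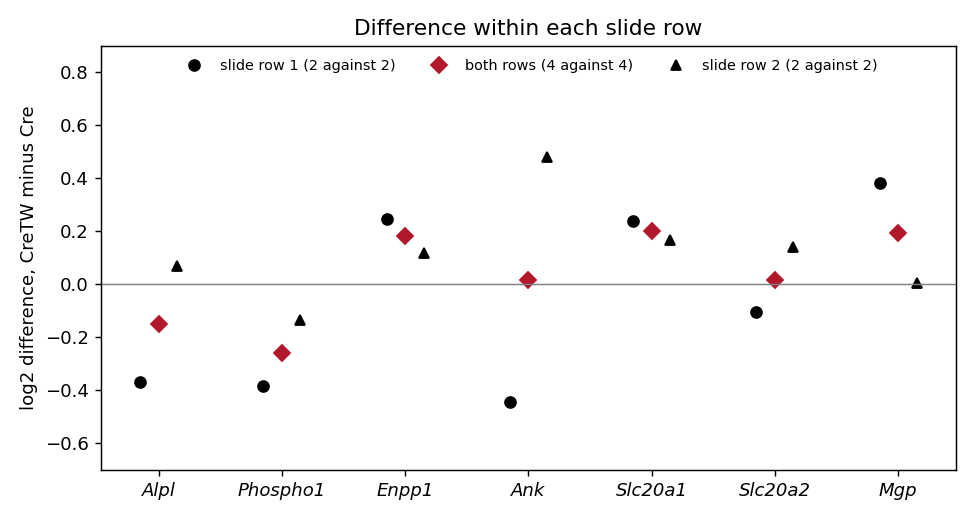
Log2 difference, CreTW minus Cre (vertical axis), for the 7 genes within slide row 1 (circles, 2 arrays against 2), over both rows (red diamonds, 4 against 4) and within slide row 2 (triangles, 2 against 2). Ank has the widest gap between rows, at -0.44 in row 1 and 0.48 in row 2.

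Across the 8 arrays Ank ran opposite to the chondrocyte markers. Pearson's r between Ank and the score of 10 chondrocyte markers, led by Col2a1 and Acan, was -0.90 (exact permutation p = 0.00216, two-sided) and Spearman's rho was -0.95 (exact permutation p = 0.00114). Over 42 such relations, the 7 genes against 6 of the 10 marker scores, the adjusted p was 0.0906 for r and 0.0479 for rho. The 6 were chondrocyte, osteoblast and osteocyte, osteoclast, skeletal muscle, smooth muscle and pericyte, and perichondrium, tendon and fibroblast. The hypertrophic chondrocyte, endothelial, erythroid, and neutrophil and marrow scores were left out. The adjusted p therefore holds for these 42 relations alone. For Ank and the chondrocyte score, r was -0.83 without Cre replicate 4 and CreTW replicate 3, the arrays farthest from the median score. Ank ran along with the osteoblast and osteocyte score at r = 0.84 and rho = 0.81 (exact permutation p = 0.00739 and 0.0218), with adjusted p = 0.155 and 0.221 and r = 0.73 without CreTW replicates 2 and 3. A slide row held 4 arrays, too few for a value of its own. No other relation of the 42 had an adjusted p below 0.2 for r or rho.

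Slc20a1 and Slc20a2 encode PiT-1 and PiT-2, the sodium-driven phosphate carriers of the plasma membrane. Slc20a1 read 2.93, 2.66, 2.81 and 2.64 on CreTW arrays and 2.52, 2.60, 2.57 and 2.55 on Cre arrays. The lowest CreTW array, replicate 4, lay just above the highest Cre array, replicate 2, and the Cre arrays lay close together. Slc20a1 averaged 2.76 ± 0.13 in CreTW and 2.56 ± 0.04 in Cre cartilage (SD, n = 4 each), 1.15-fold, a log2 difference of 0.20 ± 0.09 (95% interval 0.00011 to 0.41, adjusted p = 0.466, limma).

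It was the 1 gene of the 7 whose groups did not overlap, and 6.70% of all features had groups that did not. In 3.89% of all features the groups were apart with CreTW higher, as in Slc20a1. For Slc20a1 a two-sided exact permutation test gave p = 0.0286, which is as low as 4 against 4 arrays can go, without adjustment for the 7 genes. Any feature whose groups do not overlap has this p, so it restates the separation. Slc20a1 differed by 0.24 within slide row 1 and 0.17 within row 2. Its other probe, to NM_001159593, read between -5.21 and -2.95 on CreTW arrays and between -5.35 and -2.31 on Cre arrays, with 2 of 8 values well above background, so it gives no second measurement.

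Slc20a2 read 1.18, 1.06, 1.42 and 0.91 on CreTW arrays and 1.11, 1.33, 1.13 and 0.92 on Cre arrays. The groups covered nearly the same range, and CreTW replicate 3 was highest. Slc20a2 averaged 1.14 ± 0.22 in CreTW and 1.12 ± 0.17 in Cre cartilage (SD, n = 4 each), a difference of 0.02 ± 0.13 (95% interval -0.29 to 0.32, adjusted p = 0.973, limma).

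Mgp encodes matrix Gla protein, which needs vitamin K-dependent carboxylation to bind mineral and block its growth. Its level was 8.24, 7.87, 7.62 and 8.11 on CreTW arrays and 7.77, 7.58, 7.78 and 7.95 on Cre arrays. CreTW replicates 1 and 4 lay above all Cre arrays, and CreTW replicate 3 lay below 3 of them. Mgp averaged 7.96 ± 0.27 in CreTW and 7.77 ± 0.15 in Cre cartilage (SD, n = 4 each), a log2 difference of 0.19 ± 0.15 (95% interval -0.14 to 0.53, adjusted p = 0.660, limma). The probe's scanner signal, 27720 to 50936, was below saturation on every array.

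**Figure D3:**
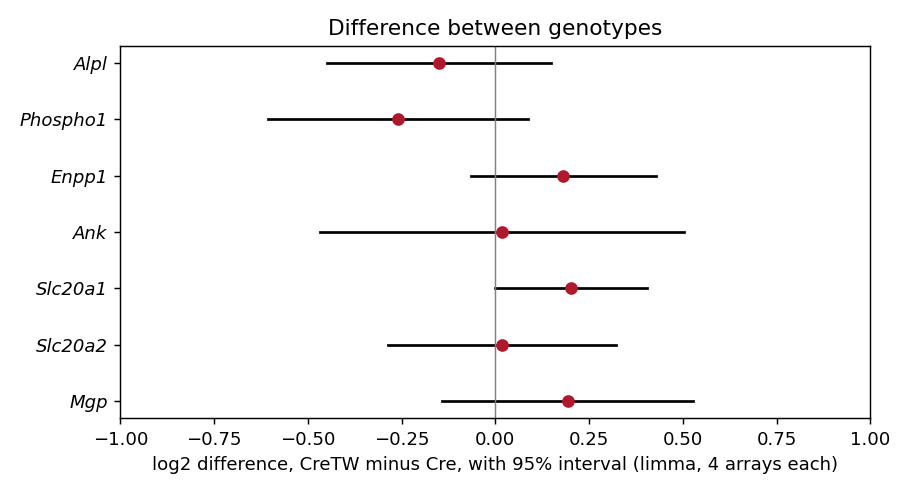
Log2 difference, CreTW minus Cre (horizontal axis), with its 95% interval from limma for the 7 genes, 4 arrays per genotype. The intervals of 6 genes include 0, and that of Slc20a1 starts at 0.00011, just above it.

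Other genes of the pathway were read in 8 lists by role. Of 57 measured genes other than the 7, 0 passed the limma test and 5 had an unadjusted p under 0.05, a smaller share than the 10.7% of all features that did. Of the 57 differences 40 were negative and 17 positive, with a median of -0.09, against -0.01 over all features. The genes named below were taken for brightness or size of difference within their list. Among phosphatases and genes of phosphocholine supply, Smpd3, the sphingomyelinase that forms phosphocholine in the matrix vesicle membrane, averaged 5.74 ± 0.20 in CreTW and 6.16 ± 0.49 in Cre cartilage (log2 -0.42 ± 0.23, adjusted p = 0.562). Enpp6, which frees phosphocholine from lysolipids, had the largest difference of all these genes, -1.41 ± 0.59 (adjusted p = 0.448), with values of -2.32, -3.28, -0.59 and -2.07 on CreTW arrays and 0.04, -0.22, -0.61 and -1.85 on Cre arrays. It was well above background on 3 of 4 CreTW arrays, and the groups overlapped.

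Genes of pyrophosphate, ATP and adenosine, inside or outside the cell, included 2 with an unadjusted p under 0.05 in the negative direction and 1 in the positive. Nt5e, the surface enzyme CD73 that turns AMP into adenosine and phosphate, read 2.60, 2.38, 2.69 and 2.49 on CreTW arrays and 2.07, 1.83, 1.77 and 2.26 on Cre arrays. The groups did not overlap, and the difference was 0.56 ± 0.13 (adjusted p = 0.196, limma). Ppa1, the soluble pyrophosphatase, averaged 5.14 ± 0.30 in CreTW and 5.85 ± 0.59 in Cre cartilage (log2 -0.71 ± 0.29, adjusted p = 0.434). Panx3, a channel that releases ATP from maturing chondrocytes and osteoblasts, averaged 3.22 ± 0.18 in CreTW and 3.76 ± 0.44 in Cre cartilage (log2 -0.54 ± 0.21, adjusted p = 0.415).

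With the 7 genes counted in, 7 of 8 phosphatase and phosphocholine genes, 6 of 10 pyrophosphate genes, 3 of 5 carriers, 4 of 9 inhibitors, 4 of 8 regulators and 5 of 8 annexin and vesicle calcium genes had a negative difference, and 0 passed in any list. Of the other phosphate carriers, the exporter Xpr1 was at -0.39 ± 0.22, the mitochondrial carrier Slc25a3 at -0.16 ± 0.10 and the glucose 6-phosphate carrier Slc37a4 at -0.27 ± 0.14 (adjusted p = 0.567, 0.613 and 0.525). The kidney and gut carriers Slc34a1, Slc34a2 and Slc34a3 and the kidney carrier Slc17a1 were listed but not tested, since their probes were well above background on at most 1 of 8 arrays. Among inhibitors of mineral growth, Spp1, osteopontin, was at 0.07 ± 0.29 and the microfibril protein Fbn1 at 0.17 ± 0.08 (adjusted p = 0.948 and 0.535). Among mineral-binding matrix proteins, 7 of 8 differences were negative. Sparc, osteonectin, was at -0.06 ± 0.13, Ibsp, bone sialoprotein, at -0.62 ± 0.44, and Mepe, an osteocyte protein, at -0.49 ± 0.26 (adjusted p = 0.894, 0.644 and 0.557).

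Regulators of phosphate held the other gene with an unadjusted p under 0.05. Vdr, the vitamin D receptor, averaged 0.71 ± 0.26 in CreTW and 1.55 ± 0.32 in Cre cartilage, 1.78-fold lower in CreTW (log2 -0.83 ± 0.19, adjusted p = 0.186, limma). Its values were 0.67, 0.53, 1.10 and 0.56 on CreTW arrays and 1.64, 1.68, 1.80 and 1.08 on Cre arrays, so CreTW replicate 3 and Cre replicate 4 overlapped. With array weights, an alternative in which arrays that vary more count less, Vdr passed (-0.97, adjusted p = 0.0323). Pth1r, the receptor of PTH and PTHrP, was at -0.28 ± 0.17 and Phex, an endopeptidase whose loss causes phosphate wasting, at -0.42 ± 0.38 (adjusted p = 0.595 and 0.714). The probe of Fgf23, known as a phosphate-wasting hormone of osteocytes, averaged 7.14 ± 0.17 in CreTW and 6.89 ± 0.15 in Cre cartilage (adjusted p = 0.503), and whether it reads that transcript alone was not tested.

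Annexins, which bind calcium and membranes in matrix vesicles, lay near no difference, with Anxa2 at 0.003 ± 0.102, Anxa5 at 0.03 ± 0.10 and Anxa1 at 0.15 ± 0.09. In the same list Trpv4, a calcium channel of chondrocytes, was at -0.28 ± 0.26 (adjusted p from 0.580 to 0.993 over these 4 genes). Transcription factors that drive chondrocyte maturation had 6 of 8 differences negative, among them Sp7 at -0.23 ± 0.14, Runx2 at -0.21 ± 0.12 and Mef2c at -0.10 ± 0.12, and Zbtb20 was at 0.08 ± 0.15 (adjusted p from 0.577 to 0.875).

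**Figure D4:**
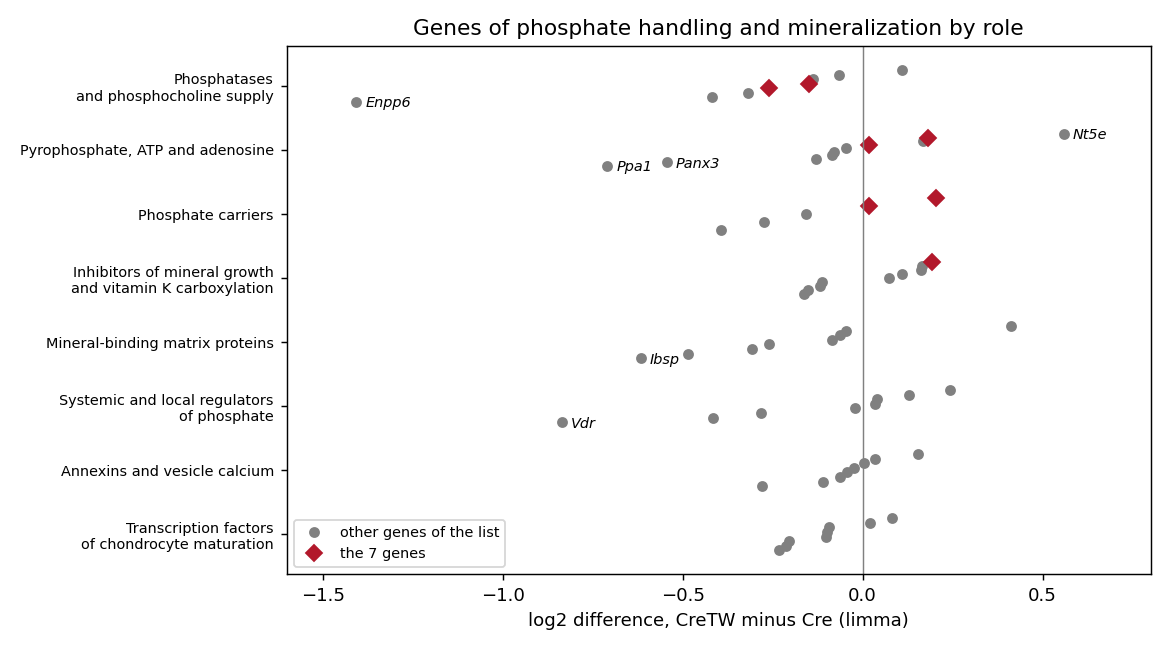
Log2 difference, CreTW minus Cre (horizontal axis), of each measured gene in 8 lists by role; red diamonds are the 7 genes, grey points other genes, and differences of 0.5 or more in size are labelled. The labelled genes run from Enpp6 at -1.41 to Nt5e at 0.56, and the 7 genes lie between -0.26 and 0.20.

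The tissue label was checked against its markers, and other cell types were read the same way. All 10 chondrocyte markers were well above background on every array, with Col2a1 at 9.85 ± 0.16 in CreTW and 9.90 ± 0.22 in Cre cartilage, Acan at 8.74 ± 0.11 in CreTW and 8.73 ± 0.28 in Cre, and Sox9 at 4.01 ± 0.43 in CreTW and 4.31 ± 0.49 in Cre (SD, n = 4 each). Skeletal muscle markers, 13 of 13 measured, summed to 39.5 to 479 on CreTW arrays and 29.0 to 82.2 on Cre arrays. Tnni2 and Tnnt3 were the brightest and differed least, by log2 0.31 and 1.46. All 13 muscle differences were positive, with a median log2 difference of 4.02 and the largest, for Myh4, at 5.47. Osteoclast markers, 8 of 9 measured, summed to 278 to 1028 on CreTW arrays and 422 to 1186 on Cre arrays, led by Acp5 and Ctsk. All 8 osteoclast differences were negative, with a median log2 difference of -0.84. Osteoblast and osteocyte markers, 10 of 11 measured, summed to 546 to 708 on CreTW arrays and 541 to 711 on Cre arrays, led by Col1a1 and Bglap2, while Sost, which marks osteocytes, was well above background on 1 of 8 arrays. Endothelial scores lay between -0.55 and 0.48 on CreTW arrays and between -0.46 and 0.34 on Cre arrays, erythroid scores (4 of 7 markers measured) between -1.03 and 0.38 on CreTW and between -0.53 and 0.83 on Cre arrays, and neutrophil and marrow scores between -1.18 and 0.99 on CreTW and between -1.89 and 2.27 on Cre arrays. Differences were negative in 9 of 10 osteoblast and osteocyte markers (median -0.28), 6 of 7 endothelial, 4 of 4 erythroid and 4 of 7 neutrophil and marrow markers. None of the 10 marker lists had a gene past the limma test, although 10 of 13 muscle markers had an unadjusted p under 0.05.

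The scores of smooth muscle and pericyte markers (0.12 to 0.36 on CreTW arrays, -0.84 to 0.11 on Cre arrays) and of perichondrium, tendon and fibroblast markers (0.11 to 0.45 on CreTW arrays, -0.80 to 0.03 on Cre arrays) did not overlap between genotypes. When the score of skeletal muscle was added as a covariate, the difference of Phospho1 was 0.02 ± 0.20, and those of Slc20a1 and Mgp were 0.32 ± 0.13 and 0.41 ± 0.21 (adjusted p = 0.993, 0.862 and 0.862). The muscle score was itself mostly higher in CreTW, at -1.14 to 3.35 against -3.05 to 0.37 on Cre arrays. That fit therefore separates muscle from genotype poorly. With the osteoblast score as a covariate Mgp was at 0.09 ± 0.13 and Ank at 0.24 ± 0.11 (adjusted p = 0.822 and 0.422), and with the osteoclast score Enpp1 was at 0.09 ± 0.12 and Ank at 0.37 ± 0.12 (adjusted p = 0.831 and 0.358). The osteoclast score was itself mostly lower in CreTW, at -1.42 to 0.41 against -0.63 to 0.89 on Cre arrays, so that fit separates osteoclasts from genotype only in part. The part of the smooth muscle and fibroblast markers in the values of the 7 genes was not tested. CreTW replicate 1, the CreTW array with the lowest muscle score, differed alone from the 4 Cre arrays by 0.37 ± 0.14 for Slc20a1 and 0.47 ± 0.18 for Mgp (adjusted p = 0.876 for both), on the assumption that this single array varies like the others.

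**Figure D5:**
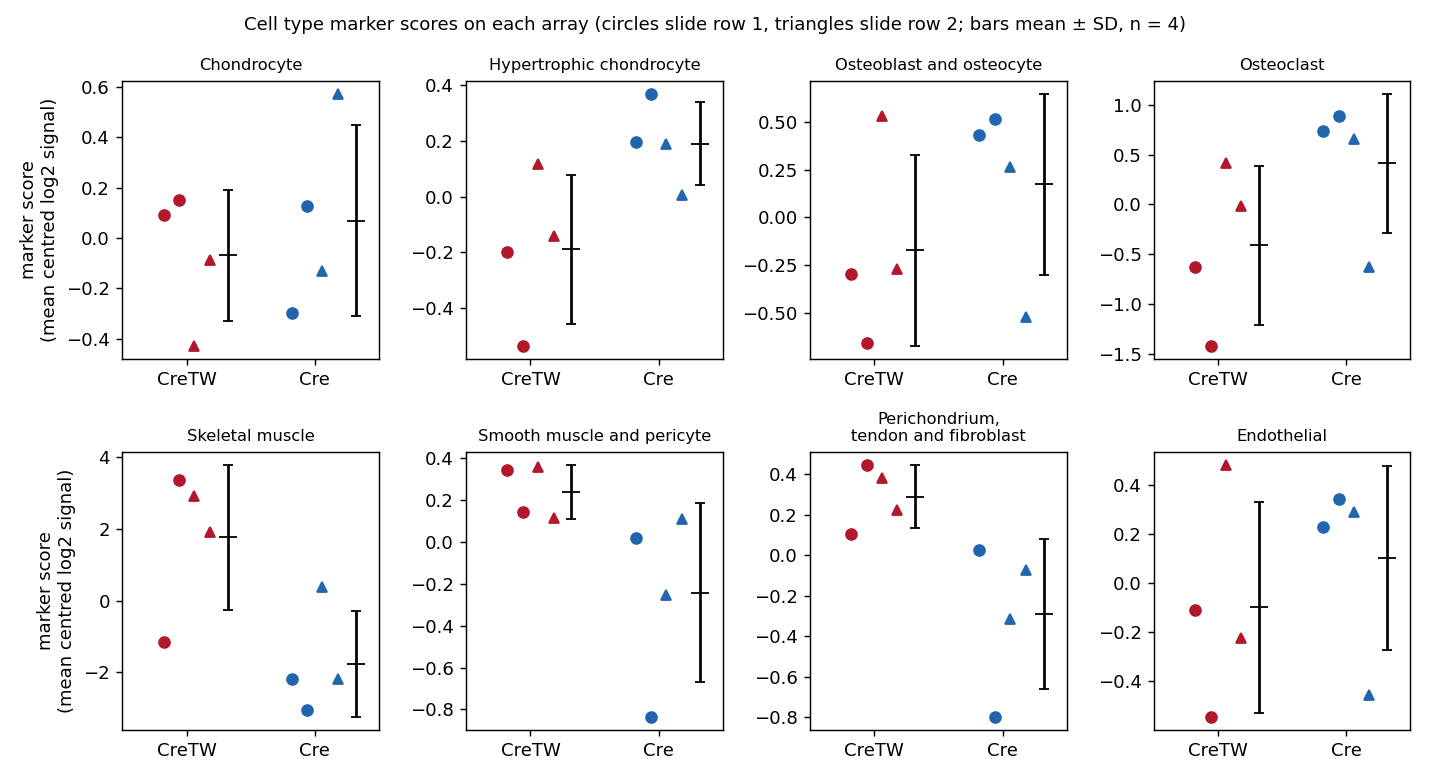
Marker score, the mean centred log2 signal of a list's genes (vertical axis), for 8 cell types on 4 CreTW arrays (red, left) and 4 Cre arrays (blue, right), with circles for slide row 1, triangles for slide row 2 and bars for the mean ± SD of 4 arrays. Skeletal muscle has the widest range, -1.14 to 3.35 on CreTW arrays and -3.05 to 0.37 on Cre arrays.

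For each of the 7 genes, the 2 other named genes that ran most like it over the 8 arrays were taken by Pearson's r, as a description, since 14126 genes were searched. Alpl was most like Mrpl43 (r = 0.989) and Ccdc116 (0.965), and Phospho1 most like Tor2a (0.982) and Sem1 (0.968). Enpp1 was most like Hif1a (0.989) and Cask (0.985), and Ank most like Bmi1 (0.983) and Ier5 (0.979). Slc20a1 was most like Kif1b (0.959) and Batf2 (0.957), Slc20a2 most like Adra2a (0.950) and Mark3 (0.949), and Mgp most like Lyrm4 (0.979) and Gm6548 (0.967). The number of genes with r over 0.9 was between 13 for Slc20a1 and 157 for Enpp1, and none of the 7 was among the 2 nearest genes of another.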

How the data were processed

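The authors' scanner files hold intensity values from Feature Extraction 11.5.1.1 and name mm9, per the file headers. The processed intensity used here is already background-subtracted. The deposited log2 value table, made with GeneSpring 14.9 per the labels, differed from log2 of those intensities by 1 constant in each array (r = 1, 8 arrays; 6 to 10 probes per array were off by over 0.01), and the constant minus the log2 75th percentile lay between -0.0056 and -0.003. The table's medians lay between -3.04 and -2.94 and its genes were not centred.

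Outlier spots were dropped, spots of a probe averaged, and log2 values set relative to the 75th percentile of each array's non-control probes. A probe had to be marked above background on 4 or more of 8 arrays. Probes were named through RefSeq transcripts of GRCm38.p6 (32994 of 56605 matched 1 symbol, 23611 none), and the brightest probe stood for a gene. CreTW and Cre were compared with limma 3.58.1 in R 4.3.3 (lmFit, eBayes), 8 arrays, Benjamini-Hochberg over 23105 features, threshold 0.05. The fit had 6 residual and 2.52 prior degrees of freedom, and the code was tested on simulated data. The series text names 4 mice per genotype.

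The 7 genes, the 8 pathway lists and the 10 marker lists were chosen with earlier results of these data known. Named genes are the 7, each pathway list's 2 brightest and 2 most different genes (or all that passed), the brightest markers, tissue checks and nearest genes by r. Alternatives are given in the closing section. Replicate numbers did not pair the arrays. Normexp was run on the median signal.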

Additional observations from a re-analysis of the deposited data

Results flagged for a closer look

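Of 64 sets of 4 arrays examined among the 7 genes and the named pathway genes, 3 had 1 array far from the other 3, and chance alone flags about 1 in 20. None was among the 7 genes. Runx2 on CreTW arrays was lowest on replicate 1 (0.53) and 0.95 to 1.02 on the other 3, a gap of 0.853 of the range. Mef2c on Cre arrays was highest on replicate 4 (4.28) and 3.81 to 3.86 on the other 3, a gap of 0.896 of the range. Zbtb20 on Cre arrays was also highest on replicate 4 (3.76) and 3.27 to 3.35 on the other 3, a gap of 0.846 of the range. Cre replicate 4 also had the highest chondrocyte score of the 8 arrays (0.57) and the lowest Ank level (1.36, with CreTW replicate 2 at 1.36 just above it).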

How the results depend on the processing

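Under 26 alternatives 0 of the 7 genes passed the limma test in any. Pathway genes passing numbered 0 in 25 and 1 with array weights (Vdr). The sign of Enpp1, Slc20a1 and Mgp was kept in 26 of 26, with ranges of 0.09 to 0.35, 0.15 to 0.37 and 0.005 to 0.47. Among the 26, the filters, the ways to join a gene's probes, the block fits and the trend fit returned the main estimates (0.18, 0.20 and 0.19). With 1 kept probe per gene and balanced blocks, those settings could not turn the sign of any of the 7 genes. Alpl turned to 0.070 in slide row 2 alone and Phospho1 to 0.024 with the muscle score added to the fit. Slc20a2 turned to -0.10 in slide row 1 alone, to -0.11 with array weights, and ranged from -0.075 to 0.10 without single arrays. Ank turned to -0.44 in slide row 1 alone, -0.044 with array weights, -0.064 with the muscle score and -0.14 with CreTW replicate 1 alone, and ranged from -0.14 to 0.16 without single arrays. The cause was not tested. Without single arrays Alpl lay between -0.25 and -0.08, Phospho1 between -0.36 and -0.16, Enpp1 between 0.11 and 0.26, Slc20a1 between 0.15 and 0.24 and Mgp between 0.10 and 0.31. Over all features 80 passed, 53 higher and 27 lower in CreTW, and 42 to 75 did without single arrays (42 without CreTW replicate 4, 50 and 51 without Cre replicates 3 and 2). The count was 27 without the filter on dim probes, where 45616 features were tested, 53 with the slide row as a block, 0 within either slide row alone, where 4 arrays were left, 127 with array weights, 48 with the osteoclast score, 4 with the muscle score and 1 with CreTW replicate 1 alone. Same-numbered arrays of the genotypes deviated with correlations of -0.10 to 0.31, so the number does not pair them. With the replicate block 12 features and 0 of the 7 genes passed (adjusted p from 0.558 to 0.982). CreTW replicate 1 alone and the genotype by slide row test were chosen after seeing the data.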

Other observations

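Among smooth muscle and pericyte markers, read because Mgp is also made by vascular smooth muscle, 3 of 6 had groups that did not overlap, all with CreTW higher, and 0 passed the test. Groups did not overlap in 6.70% of all features, and in 3.89% with CreTW higher. Acta2, smooth muscle actin, read 4.74, 4.24, 4.49 and 4.40 on CreTW arrays and 3.74, 3.03, 3.61 and 3.59 on Cre arrays (log2 difference 0.97 ± 0.17, adjusted p = 0.0822, limma). Rgs5, a pericyte gene, read 2.55, 2.27, 2.79 and 2.09 on CreTW arrays and 1.77, 1.60, 1.75 and 1.69 on Cre arrays (0.72 ± 0.15, adjusted p = 0.145). Myh11, the myosin that defines smooth muscle, was at 0.23 ± 0.28 (adjusted p = 0.789), with overlapping groups. These genes were chosen after their values were seen.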
